A study of Mus musculus with 6 samples.

Results

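RISC-IP peaks fell in exons of 139 of the 365 protein-coding mouse genes named Zfp followed by a number. These 139 genes were chosen by the peak lists themselves: a gene was taken when an exon of its GENCODE M21 model (mm10) was overlapped by a peak, by 1 bp or more, in at least 2 of 5 libraries. The same rule took 8284 other protein-coding genes. All libraries were from mouse myocytes, that is primary satellite cells (MSC, muscle progenitors) kept for 30 h in differentiation medium, transfected with duplex RNA and lysed 16 h later. RNA bound to Ago2, the RISC protein that holds the miRNA, was then immunoprecipitated and sequenced. The control-IPs had received a siGFP duplex, whereas the miR-222-IPs had received miR-222, at a dose given as 10 nM in the labels and 20 nM in the methods. There were 2 experiments, each with 1 miR-222-IP. In the first, miR-222-IP replicate 1 went with controls 1 and 2, and in the second, miR-222-IP replicate 2 went with controls 3 and 4. Transfection of a duplex is a model of excess miR-222 and not of its natural level. Nothing in the labels ties a library to a separate animal or culture, so that p-values measure the spread between these libraries, which may be technical.

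Most Zfp genes encode C2H2 zinc finger proteins, in which a pair of cysteines and a pair of histidines hold a zinc ion and each finger contacts a few bases of DNA. The fingers stand in tandem arrays that are usually encoded by 1 long last exon, and many of these proteins carry a KRAB domain that recruits the co-repressor Trim28 to silence transposons and genes. Because the finger repeats are alike in sequence, a coding region of this family can hold the same miRNA seed match many times. A few Zfp genes encode other kinds of zinc finger, such as Zfp36 (tristetraprolin), a CCCH protein that binds AU-rich elements of mRNA.

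The peak lists held 10579 to 37762 peaks in the 5 libraries, and miR-222-IP replicate 2 had the longest list. The deposited value of a peak is its −log10 p, which was over 20 for every peak, and the files give no read counts. The methods state an average depth over the samples and none for a single library. A −log10 p rises with enrichment and with depth. Control-IP replicate 3 was left out by the rule. Its 3619 regions had a median width of 32103 bp against 362 to 411 bp in the other libraries, and they covered 10 chromosomes. Of the 9 myocyte markers, 8 had an exonic peak in 2 or more of the 5 libraries, whereas Myog had one in 1 library. No peak was called in any of the 5 on the satellite cell markers Pax7 and Myf5, on Col1a1 and Dcn of fibroblasts or on the adipocyte markers Adipoq and Plin1. Markers of other cells were also present. Pecam1 of endothelial cells and Adgre1 of macrophages had a peak in all 5 libraries and Ptprc in 4, while Cdh5 and Pdgfra had one in 1 library. The part of other cells in the Zfp peaks was not tested, and fewer cells of a type cannot be told apart from less RNA per cell in such bulk samples.

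The sequences that bear on these genes are shown first, because the miRNA seed matches of Zfp coding regions are repeated. The mature miRNAs are from RefSeq (GRCm38.p6), with bases 2 to 8, the seed, in capitals.
miR-222-3p: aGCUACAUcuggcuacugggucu
miR-181a-5p: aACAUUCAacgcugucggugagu
miR-188-3p: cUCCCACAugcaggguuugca
miR-199a-5p: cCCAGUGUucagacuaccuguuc
The seed match of miR-222-3p is the 7-mer ATGTAGC, complementary to its seed. For miR-181a-5p the match is TGAATGT, for miR-188-3p it is TGTGGGA and for miR-199a-5p it is ACACTGG. They were searched on the strand of the gene.

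Zfp90 is a KRAB gene on chromosome 8 with 13 fingers, and 1 merged peak interval (chr8:106423847-106425783, plus strand, mm10, called in all 5 libraries) lay over its last coding exon and the start of its 3′UTR. That interval held 9 matches to the miR-188-3p seed, 8 of them inside the finger array. The 4 windows below, with the match in capitals, are from this array at chr8:106424587-106424593, chr8:106424671-106424677, chr8:106424755-106424761 and chr8:106424839-106424845.
Zfp90 match a: agtgtagcctcTGTGGGAaagccttccag
Zfp90 match b: gctgcaatctcTGTGGGAggtcattcagg
Zfp90 match c: agtgtaaggaaTGTGGGAaggcctttagc
Zfp90 match d: agtgcagcattTGTGGGAgggcatttggt
Match a lay under a peak in 3 libraries and the others in all 5. Neighbouring matches here were 84 bases apart, the length of 1 finger with its linker (28 residues). Zfp868, also on chromosome 8, showed the same order for miR-181a-5p. It held 6 such matches under its peaks, 5 of them in the finger array, and 3 of these at chr8:69611627-69611633, chr8:69611711-69611717 and chr8:69611795-69611801 (minus strand) are shown. Their peaks were called in 2 or 3 libraries.
Zfp868 match a: gagaaaccctaTGAATGTaaagaatgtgg
Zfp868 match b: gaaaaaccctaTGAATGTaaacactgtgg
Zfp868 match c: gaaaaaccctaTGAATGTaaactatgtgg

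The miR-222 seed match was rare by comparison. It occurred 9 times under the merged peaks of the 139 genes, once in each of 9 genes, with 8 sites in a 3′UTR, 1 in the 5′UTR of Zfp26 and 0 in CDS. Of these 9 genes, the 5 that ranked highest among them by miR-222-IP value were chosen. The value was taken over all exonic peaks of the gene and not at the site. This ranking compares genes and not conditions. Zfp706 and Zfp91 had their highest value in control-IP replicate 2, with 153.04 and 81.42 against at most 93.35 and 81.27 in the miR-222-IPs. For Zfp346 the interval with the site had only 26.5, in miR-222-IP replicate 2. The sites of these 5 genes are printed.
Zfp652: ttaaccactcaATGTAGCattgtatattt
Zfp839: ggcctggtcccATGTAGCccagactggcc
Zfp706: gatccctcgtgATGTAGCctgggcagtta
Zfp346: ggctttgtttcATGTAGCccaggctagtc
Zfp91: ttaaaatattgATGTAGCctttaccagaa
These sites are at chr11:95772205-95772211 (plus strand), chr12:110869417-110869423 (plus), chr15:36999817-36999823 (minus), chr13:55134412-55134418 (plus) and chr19:12769841-12769847 (minus). The sites of Zfp839 and Zfp346 lie in bases that the reference genome masks as repeats, whereas the other 7 sites do not. The remaining 4 genes with a site were Zfp868, Zfp426, Zfp738 and Zfp26.

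The share of Zfp genes that met the rule was 38.1%, near the 38.4% of all 21951 protein-coding genes that did, so membership itself did not set the family apart. Of the 365 genes, 176 had no exonic peak in the 5 libraries, 50 had one in 1 library, 44 in 2, 27 in 3, 35 in 4 and 33 in all 5. A peak in all 5 libraries was therefore less common among Zfp genes (9.04%) than among all protein-coding genes (18.9%), as a description and with no test. The longest list, miR-222-IP replicate 2, covered every one of the 139 genes. Of the control-IPs, replicates 1, 2 and 4 had a peak on 48, 99 and 80 of them, and the other miR-222-IP had one on 108. At the edge of the rule, Zfp51 had the lowest maximum of the genes taken, with 20.3 and 20.7 in the miR-222-IPs, and Zfp292 the highest with a peak in 2 libraries, with 72.3 in a control-IP (replicate 2) and 39.2 in a miR-222-IP (replicate 2). Just outside it, Zfp526 had a single value of 61.8 in control-IP replicate 2, and 40 of the 50 genes with a peak in 1 library had it in miR-222-IP replicate 2.

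The 139 genes differed in makeup from the 226 Zfp genes that did not meet the rule. Translation of the annotated coding sequence gave at least 1 C2H2 finger in 92.0% of 138 members and in 95.6% of 225 other Zfp genes. The median was 9 fingers in members and 11 in the other Zfp genes. A KRAB motif was found in 43 members (31.2%) and in 136 of the other Zfp genes (60.4%). Zfp genes stand in clusters, and 49.6% of members lay within 100 kb of another Zfp gene against 61.5% of the rest. Chromosome 7 alone held 37 members out of its 89 Zfp genes. Near-identical paralogs can share reads, and how the alignment placed such reads is not given in the sources used here.

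The highest exonic values in the family belonged to genes of varied function, and Zfp36, Zfp330 and Zfp703 had no C2H2 motif. Zfp36, the mRNA decay factor, had 152, 141 and 138 in the control-IPs (replicates 1, 2 and 4, the order used throughout) and 130 and 129 in the miR-222-IPs (replicates 1 and 2). The control-IPs were thus all above the miR-222-IPs. A single interval of 1834 bp (chr7:28376750-28378583, mm10) held 933 of its 957 coding bases and all 777 bases of its 3′UTR. Zfp710 followed with 72.0, 126 and 96.7 in the control-IPs and 116 and 134 in the miR-222-IPs. Zfp330 was far more variable, with 47.0, 23.8 and 116 in the control-IPs and 105 and 191 in the miR-222-IPs. Zfp691 had 96.0, 101 and 48.6 against 112 and 93.6.

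Zfp652, a transcriptional repressor, had 63.7, 107 and 95.1 in the control-IPs against 78.9 and 146 in the miR-222-IPs. Zfp106, an RNA-binding protein needed to maintain the neuromuscular system, had 48.6, 113 and 90.6 against 94.9 and 110. For both genes the groups overlapped. The other genes of the highest 10 by median were Zfp871, Zfp207 (BuGZ, a spindle and kinetochore protein), Zfp384 and Zfp703, with medians of 93.9, 85.6, 81.0 and 79.6. Zfp384 spread widest of these, from 21.1 in control-IP replicate 1 to 135 in miR-222-IP replicate 2.

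**Figure D1:**
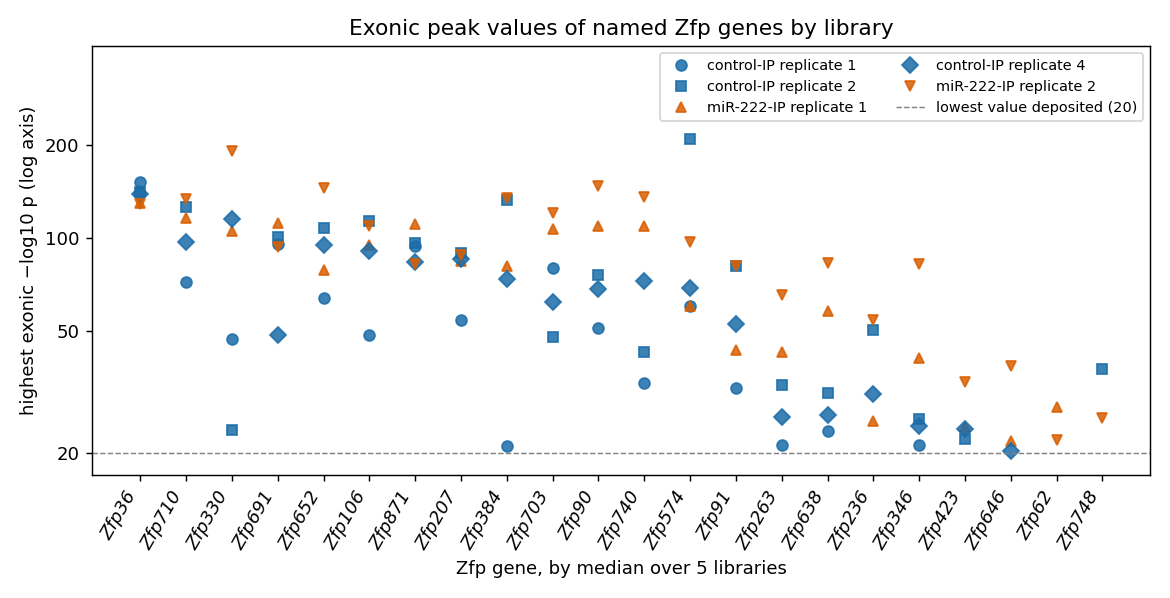
Highest exonic −log10 p (log axis) of 22 named Zfp genes, ordered by their median over the 5 libraries, with 1 point for each library in which a peak was called (blue, control-IPs; orange, miR-222-IPs; a library without a peak has no point). Values of Zfp36 lie close together between 129 and 152, whereas those of Zfp330 run from 23.8 to 191.

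Peaks of a Zfp gene could be 1 or many. The peaks of the 5 libraries merged into 330 exonic intervals, with 1 interval in 60 genes and 2 or more in 79, and at most 9. Zfp652, Zfp106, Zfp827 and Zfp236 had 9 each, and Zfp207 had 8. All 9 intervals of Zfp236, the gene with the most fingers (29, over 30 coding exons), were in CDS, and 4 of them were called in 2 or more libraries. Zfp652 had 5 in CDS and 4 in its 3′UTR of 13043 bp, and 1 of the latter also overlapped an exon of Abi3. Overlap with another protein-coding gene was found for 6 members in all, and the peaks carry no strand.

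By position, 177 intervals (53.6%) touched CDS and not 3′UTR, 66 (20.0%) touched 3′UTR and not CDS, 72 (21.8%) spanned both and 15 touched neither. Of the 36 intervals called in all 5 libraries, 16 were in CDS and not 3′UTR, 9 in 3′UTR and not CDS, and 9 spanned both. Single-library intervals were mostly in CDS. They numbered 121, of which 85 touched CDS and not 3′UTR, and 65 of those 85 came from miR-222-IP replicate 2, the library with the longest list.

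Among the 33 members with a peak in all 5 libraries, 7 had every peak lying more in 3′UTR and 7 had every peak lying more in CDS. Zfp839 was of the former kind, with an interval of 779 bp at its 3′ end and values of 39.9, 36.8 and 69.9 in the control-IPs and 77.7 and 125 in the miR-222-IPs. Zfp330, Zfp703, Zfp266 and Zfp422 were the others of that kind with the highest medians. Zfp574 was of the CDS kind, with 60.1, 210 and 68.9 in the control-IPs and 60.01 and 97.2 in the miR-222-IPs. Control-IP replicate 2 stood alone at the top. Zfp90, Zfp84, Zfp719 and Zfp800 were also of the CDS kind.

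The main comparison asked whether Zfp peaks lie more in CDS than those of other genes chosen in the same way. Each exonic peak was put in the part, CDS or 3′UTR, in which it had more bases. By this count Zfp peaks lay in CDS less often than the peaks of other genes in each of the 5 libraries. The share in CDS was 45.0, 63.3 and 54.7% in the control-IPs and 59.1 and 66.2% in the miR-222-IPs. For other genes it was 61.7, 65.9 and 68.7% in the control-IPs against 69.2 and 75.4%. The means were 57.7 ± 8.30% and 68.2 ± 5.02% (SD, n = 5 libraries), and the difference was −10.5 ± 5.36 percentage points. The exact two-sided sign-flip test gave p = 0.0625, the smallest that 5 libraries allow, so that no result of this kind could pass 0.05. The Zfp share rested on 27 peaks in CDS and 33 in 3′UTR in control-IP replicate 1, the shortest list, and on 186 and 95 in the longest.

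The direction turned when bases were counted in place of peaks. Of the CDS and 3′UTR bases under Zfp peaks, 40.0, 60.3, 47.0, 49.3 and 55.5% were in CDS (the 3 control-IPs, then the 2 miR-222-IPs). For other genes these were 39.6, 48.4, 45.1, 44.1 and 49.0%. Zfp genes were higher in 5 of 5 libraries, by 5.16 ± 4.47 percentage points (exact p = 0.0625). In control-IP replicate 1 the gap was under 1 point. When each gene counted equally, the share was 53.9 ± 7.27% for Zfp genes and 52.8 ± 4.06% for others. That difference of 1.06 ± 4.87 points (exact p = 0.688) was within the spread between libraries, and its direction was split 3 to 2.

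**Figure D2:**
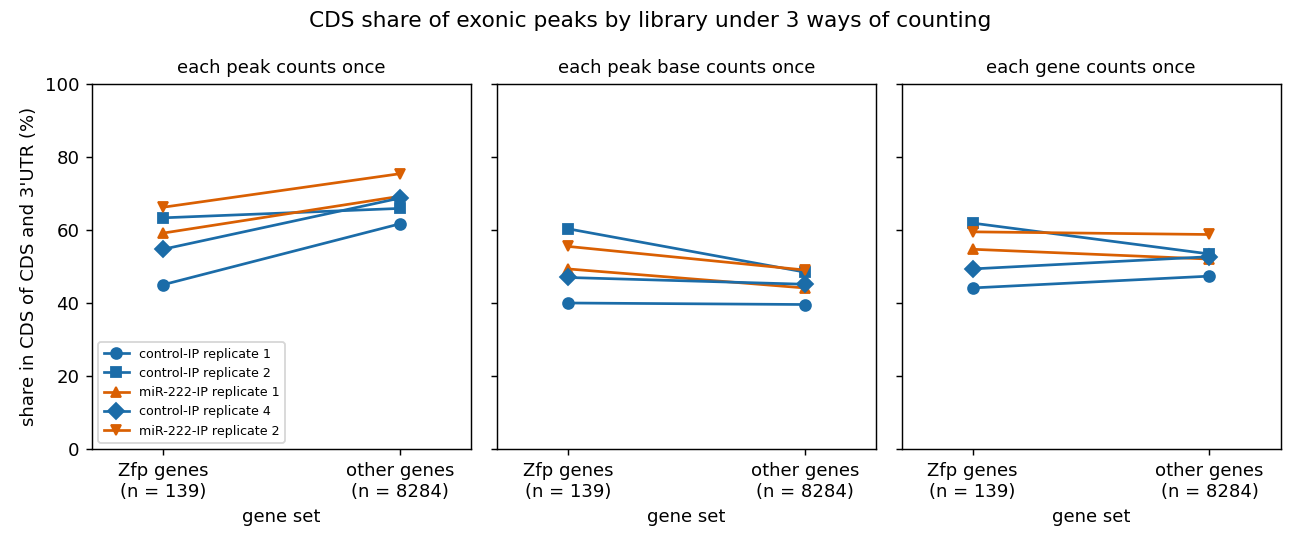
Share in CDS of exonic peaks (%), with 1 line a library joining Zfp genes (left) and other protein-coding genes chosen by the same rule (right). Counted by peaks the 5 lines rise to the right (57.7 to 68.2% on average), counted by bases they fall (50.4 to 45.3%), and with each gene counted once they are split.

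The models of Zfp genes differ from those of other genes in their exons. A Zfp member had a median of 4 coding exons, and its last coding exon held a median of 80.6% of the CDS. Other genes had a median of 9 coding exons, with 11.04% of the CDS in the last. Lengths were closer, with medians of 1842 bp of CDS and 1508 bp of 3′UTR in members and 1389 and 1378 bp in others. The CDS made up 47.8% of the CDS and 3′UTR length in members and 49.4% in others. Zfp peaks were fewer per gene (1.61 ± 0.307 against 2.73 ± 0.737) and wider (median 529 ± 74.1 bp against 378 ± 17.5 bp), in each of the 5 libraries (exact p = 0.0625 for both).

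The CDS share moved with the number of coding exons. For other genes it rose from 51.9 ± 2.30% with 1 to 2 coding exons through 53.4 ± 1.91% with 3 to 4 and 60.6 ± 3.66% with 5 to 9 to 75.0 ± 5.09% with 10 or more. For Zfp genes it was 45.3 ± 19.6%, 58.9 ± 5.55%, 55.0 ± 7.59% and 73.6 ± 5.0% in the same classes, which held 32, 48, 46 and 13 members. Within classes, Zfp genes differed from others by −6.53 ± 18.7, 5.54 ± 4.56, −5.59 ± 6.27 and −1.44 ± 4.64 points, with exact p-values of 0.62, 0.125, 0.188 and 0.500. None of the 4 differences reached the smallest p of 0.0625. The spread of the first class rested on control-IP replicate 1, with 14.3% in CDS from only 15 exonic Zfp peaks. Set against other genes with 4 coding exons or fewer, Zfp genes were higher by 4.81 ± 7.71 points (exact p = 0.188), in 4 of 5 libraries, whereas against all other genes they were lower. That set all Zfp genes, 59 of which have more than 4 coding exons, against genes with few. With both sides limited to 4 coding exons or fewer (80 Zfp genes and 1856 others), the difference was 0.84 ± 10.6 points, higher in 3 of 5 libraries (exact p = 1), which is within the spread between libraries. Both comparisons were added after the data had been seen.

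**Figure D3:**
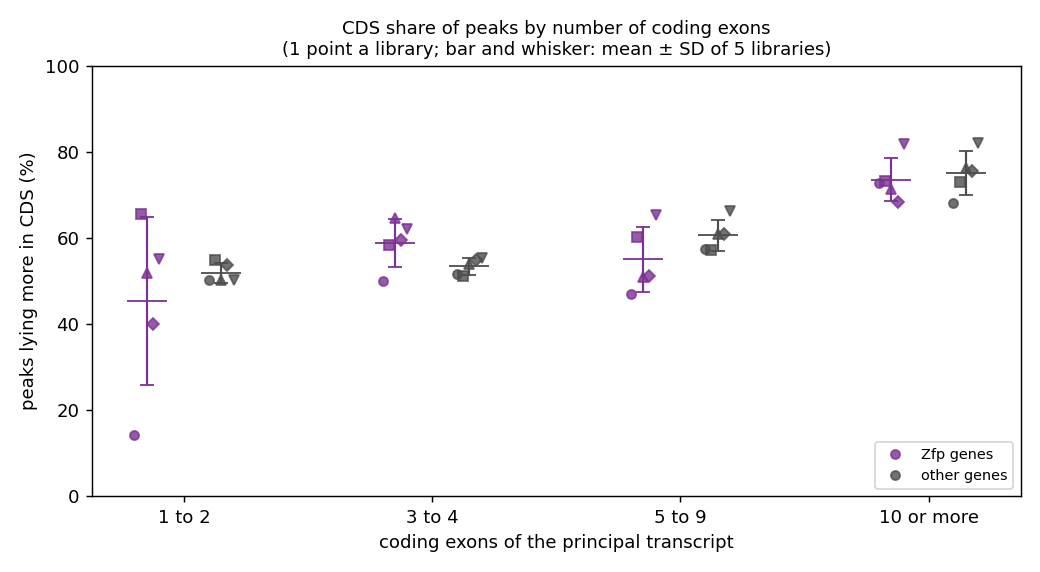
Share of peaks lying more in CDS (%) by the number of coding exons of the principal transcript, for Zfp genes (purple) and other genes (grey), with 1 point a library and the mean ± SD of 5 libraries. Other genes rise from 51.9% to 75.0% across the classes, and 34.5% of Zfp genes but 12.8% of others have 3 to 4 coding exons.

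With bases added up over genes, a smaller share of Zfp sequence lay under a peak, and genes without a peak in a library were included. In CDS, 4.81, 14.9 and 11.1% of annotated bases were covered in the control-IPs and 16.5 and 34.3% in the miR-222-IPs. For other genes these were 9.97, 18.9 and 18.7% against 22.2 and 38.4%. The gap was −5.31 ± 1.47 points in CDS and −11.1 ± 2.04 points in 3′UTR, with Zfp genes lower in 5 of 5 libraries for both parts (exact p = 0.0625). Coverage of CDS relative to 3′UTR was higher in Zfp genes. The log2 ratio of the 2 percentages was 0.15 ± 0.46 for Zfp genes and −0.24 ± 0.22 for others, a difference of 0.40 ± 0.26 (5 of 5 libraries, exact p = 0.0625).

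Each CDS and each 3′UTR of at least 100 bases was also cut into 10 bins of equal length. Other genes showed a rise across the stop codon that was smaller in Zfp genes, as a description with no test. In other genes a mean of 25.6 ± 10.7% of bases was covered in bin 5 of the CDS, 38.2 ± 12.4% in its last bin and 45.3 ± 14.4% in the first bin of the 3′UTR. In Zfp genes these were 16.4 ± 11.9%, 21.96 ± 11.9% and 22.8 ± 12.2% (SD over 5 libraries). The mean over libraries was highest in bin 6 of the 3′UTR in Zfp genes (25.0 ± 13.1%) and in its first bin in other genes.

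**Figure D4:**
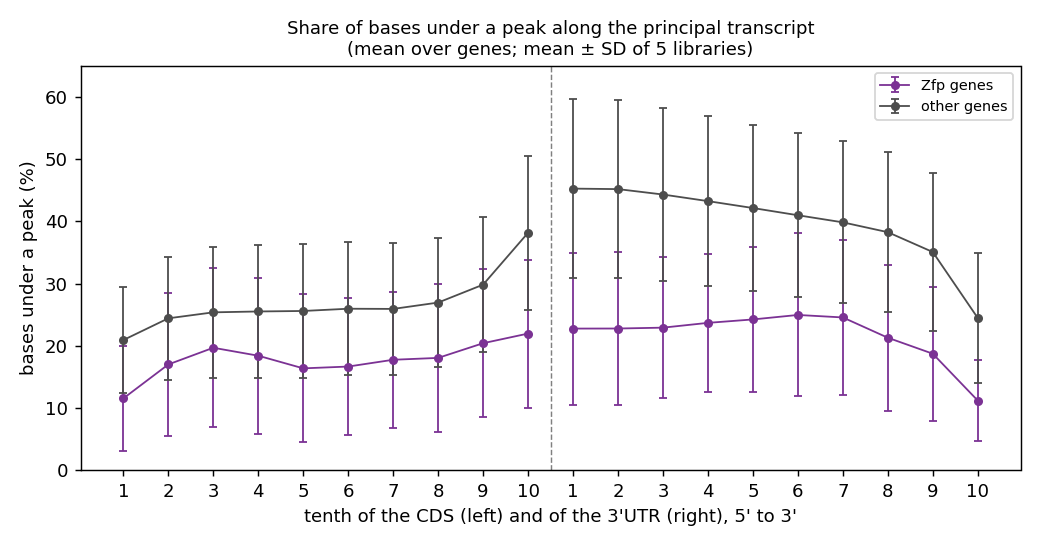
Bases under a peak (%) in each of 10 bins of the CDS (left of the dashed line) and of the 3′UTR (right), 5′ to 3′, as a mean over genes, for Zfp (purple) and other (grey) genes; whiskers are the SD of 5 libraries. Other genes rise to 38.2% at the end of the CDS and 45.3% after the stop codon, while Zfp genes stay between 11.2% and 25.0% throughout.

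Peaks in CDS had lower values than peaks in 3′UTR, in Zfp and in other genes. The median −log10 p of Zfp peaks lying more in CDS was 25.7, 30.7 and 30.6 in the control-IPs and 28.4 and 33.6 in the miR-222-IPs. For those lying more in 3′UTR it was 32.6, 37.8 and 31.7 against 33.3 and 44.0. The difference was −6.06 ± 3.38 (lower in CDS in 5 of 5 libraries, exact p = 0.0625). Other genes had a difference of −11.4 ± 6.46 (also 5 of 5). The gap was smaller in Zfp genes by 5.37 ± 4.69 in 4 of 5 libraries (exact p = 0.125).

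Inside the coding sequence, finger arrays were covered less than the rest. An array was taken from the first to the last finger of each member with a C2H2 motif, so that stretches between distant fingers count as array. Of the CDS peaks of these genes, 60.7 ± 2.64% touched the array, which held 54.4% of the coding length. Counted by bases, 47.6 ± 2.87% of the covered CDS lay in the array. Array bases were covered less than the rest of the CDS in each of the 5 libraries (4.10 against 5.95% in control-IP replicate 1, 29.4 against 40.6% in miR-222-IP replicate 2), a mean difference of −4.50 ± 4.0 points (exact p = 0.0625). Members with 10 or more fingers (64 genes) had 60.6 ± 8.01% of peaks in CDS, those with 5 to 9 (34 genes) 58.0 ± 7.75%, those with 1 to 4 (29 genes) 59.3 ± 8.73%, and the 11 members with no C2H2 motif 43.4 ± 11.5%. The first 3 classes lay within the spread of each other. Genes with a KRAB motif were at 55.8 ± 6.59% and those without at 58.1 ± 8.95%, also within the spread.

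Seed matches in coding peaks were at least 3 times as dense in Zfp genes as in other genes for 4 of the 9 miRNAs searched, and the remaining 5 had mean ratios of 0 to 1.22. In the CDS bases under peaks, the miR-188-3p 7-mer occurred 1.22 ± 0.195 times per kb in Zfp genes and 0.105 ± 0.00455 times in other genes, and the mean ratio over libraries was 11.7 ± 2.12. For miR-181a-5p the ratio was 7.95 ± 2.36, for miR-199a-5p 5.31 ± 1.26 and for miR-23a-3p 3.04 ± 0.524, each above 1 in 5 of 5 libraries. In the 3′UTR bases the corresponding ratios were 0.997 ± 0.138, 0.509 ± 0.221, 1.14 ± 0.213 and 1.10 ± 0.168. Over whole annotated CDS, covered or not, the ratios were 10.2, 8.59, 5.70 and 4.72. The muscle miRNAs miR-206-3p and miR-133b-3p, which share their seeds with miR-1 and miR-133a, had CDS ratios of 0.859 ± 0.365 and 1.14 ± 0.248. For let-7a-5p the ratio was 0.610 ± 0.234 in CDS but 2.39 ± 0.399 in 3′UTR, with 3 to 10 sites a library in the latter.

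**Figure D5:**
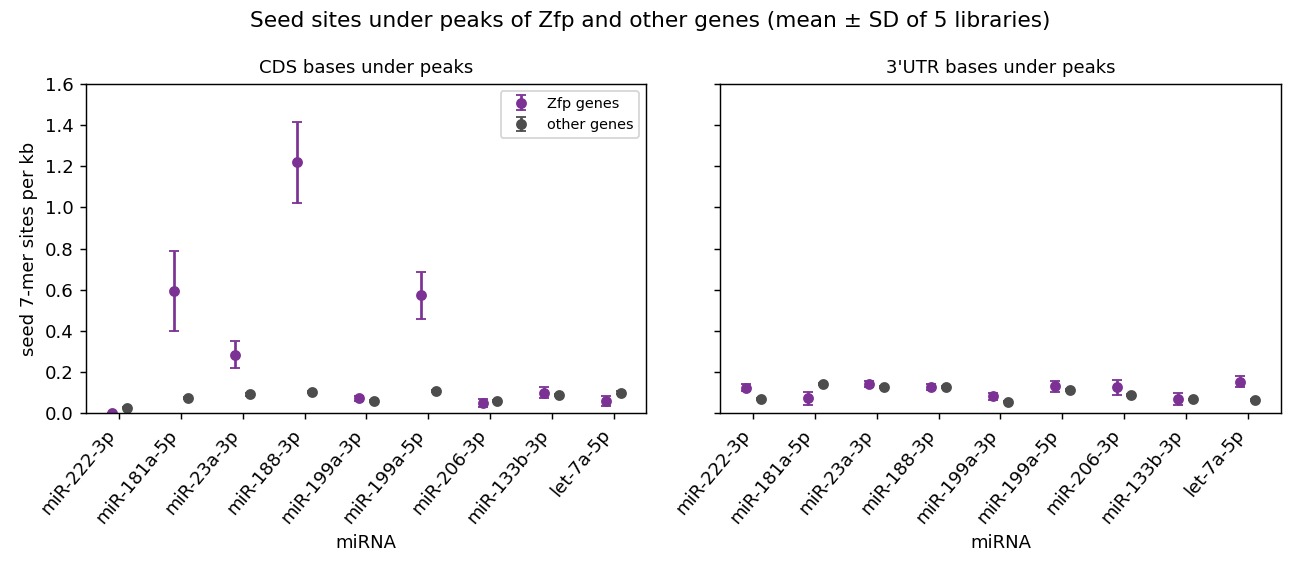
Seed 7-mer sites per kb of CDS (left) and 3′UTR (right) bases under peaks, for 9 miRNAs, in Zfp (purple) and other (grey) genes; points and whiskers are the mean ± SD of 5 libraries. The Zfp points of miR-188-3p (1.22), miR-181a-5p (0.595), miR-199a-5p (0.574) and miR-23a-3p (0.284) stand above the other genes in CDS, whereas the 3′UTR ratios of these 4 miRNAs ran from 0.509 to 1.14.

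These coding matches recurred at fixed places of the finger. The arrays held 328 miR-188-3p matches in 74 genes, of which 319 (97.3%) overlapped the codon of the second cysteine of a finger. Of 184 miR-199a-5p matches in 70 genes, 177 (96.2%) overlapped the codon of the last histidine. The 155 miR-181a-5p matches in 52 genes overlapped the first cysteine in 88 cases and the second in 59. Neighbouring miR-188-3p matches in an array were a whole number of 84-base repeats apart in 234 of 254 pairs, and in 133 pairs they were 1 repeat apart. For miR-199a-5p this held for 104 of 114 pairs. Under merged peaks lay 122, 71 and 62 of the array matches of miR-188-3p, miR-199a-5p and miR-181a-5p (37.2, 38.6 and 40.0%). The share of array bases under a merged peak was 33.8%, and for miR-23a-3p 23.5% of 85 array matches lay under one. Of all matches under merged peaks, the reference genome masks 11.6, 32.1 and 29.3% as repeats for miR-188-3p, miR-199a-5p and miR-181a-5p.

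For miR-222-3p no match lay in the CDS bases under Zfp peaks of any of the 5 libraries. In miR-222-IP replicate 2 this was 0 in 102830 bases, which allows up to 0.0292 sites per kb for counting error. Other genes had 0.0303 there. The limit and that density lie close together in a single library, so no lower density in Zfp genes is read from them. In the other libraries the limit was 0.0606 to 0.208, above the 0.0254 to 0.0309 of other genes there. Those libraries hold too few bases to tell 0 sites apart from the density of other genes. In the 3′UTR bases the density was 0.125 ± 0.0173 per kb against 0.0696 ± 0.00380 in other genes (mean ratio 1.80 ± 0.308, above 1 in 5 of 5 libraries), but only 3 to 8 sites a library stood behind it. Over whole annotated sequence the ratio was 1.11 in CDS and 0.966 in 3′UTR. By peak, 3.64 ± 0.925% of Zfp peaks held a miR-222 match against 2.04 ± 0.291% of other genes' peaks. Sites of Zfp706, Zfp839 and Zfp91 lay under a peak in all 5 libraries, the control-IPs included, whereas those of Zfp346, Zfp738 and Zfp26 lay under a peak of miR-222-IP replicate 2 and of no other of the 5.

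The study compared miR-222-IPs with control-IPs, and the last question was whether Zfp peaks differed with condition. The CDS share of Zfp peaks was higher in the miR-222-IP by 4.97 points in the first experiment and 11.5 points in the second, 8.23 on average (exact permutation within experiments, p = 0.500, where 0.167 is the smallest possible). Other genes moved by 5.43 and 6.67 points. In each experiment the miR-222-IP also had the longest peak list, and the part of list length in these differences was not tested.

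Of the 139 members, 19 (13.7%) had a peak in both miR-222-IPs and in no control-IP of the 5 libraries, beside 3.83% of all 8423 genes that met the rule. These 19 met the rule through the miR-222-IPs alone, so their number is a description. A peak in exactly 2 libraries was also more common among Zfp genes (12.05%) than among all protein-coding genes (5.745%). In each experiment the miR-222-IP had the longest peak list, and the part of list length in this count was not tested. None could have peaks in control-IPs alone, since miR-222-IP replicate 2 covered all 139, and 0.109% of other genes (9) did. These 19 genes had values from 20.3 to 69.7. A KRAB motif was found in 12 of them, beside 43 of 138 translated members (31.2%). It was found in 136 of 225 translated Zfp genes outside the rule (60.4%). This too describes genes that the miR-222-IPs chose, and it was not tested. A region of control-IP replicate 3 covered 6 of them, beside 35 of all 139 members (25.2%). Zfp738 was 1 of the 19, with 36.2 and 33.9, but its miR-222 match lay under a peak of replicate 2 alone.

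For the 33 members with a peak in all 5 libraries, the highest −log10 p was scaled between libraries and set against the control-IPs of the same experiment. Both miR-222-IPs were above every such control-IP for 7 members (21.2%), beside 15.7% of all 4160 genes with a peak in all 5 libraries. Both were below for 4 members (12.1%), beside 17.2%. These shares are near the background, and no single gene can pass 0.05, since the exact test within experiments has 6 arrangements and a smallest p of 0.167.

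Zfp638, a nuclear protein known for silencing unintegrated retroviral DNA, was first among those above. Its scaled values were 35.5, 30.7 and 28.2 in the control-IPs and 56.0 and 52.6 in the miR-222-IPs, log2 ratios of 0.76 and 0.90 in the 2 experiments. Zfp346 (JAZ), which binds double-stranded RNA, had scaled values of 31.95, 25.2 and 25.9 against 39.6 and 51.9, with log2 ratios of 0.47 and 1.00. Its highest peak was in CDS and not at its miR-222 match. Zfp740, Zfp263 and Zfp90 followed with mean log2 ratios of 0.68, 0.46 and 0.43. Zfp839 was also above, with log2 ratios of 0.65 and 0.094, and its single interval is the one with its miR-222 match. Among those below, Zfp574 and Zfp36 had mean log2 ratios of −0.80 and −0.70, and Zfp91 and Zfp652 had −0.37 and −0.26. Zfp91 and Zfp652 both hold a miR-222 match, and these ratios rest on the highest peak of the gene in each library. The highest peaks of Zfp652 lay elsewhere, and the interval with its match had no peak in control-IP replicates 1 and 2, 35.9 in replicate 4, and 30.6 and 72.3 in the miR-222-IPs. The interval of Zfp91 with its match had 32.6, 55.3 and 52.5 in the control-IPs and 43.2 and 81.3 in the miR-222-IPs. These interval values are not scaled. The log2 ratios above are differences in −log10 p and not in reads.

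The co-repressors that KRAB proteins recruit were also followed. Trim28, the KRAB co-repressor, had 31.0, 120 and 41.9 in the control-IPs and 45.3 and 65.6 in the miR-222-IPs. All 19 genes of the list of KRAB co-repressors and silencing factors met the rule, beside 38.4% of all protein-coding genes. A peak in all 5 libraries was found for 14 of them, beside 18.9% of all protein-coding genes. Of their placed peaks, 313 lay more in CDS and 61 more in 3′UTR (83.7% in CDS), with the 5 libraries added up. For all genes other than Zfp that met the rule, the share was 61.7 to 75.4% by library. The sets were not matched on coding exons. Setdb1, the histone methyltransferase that Trim28 recruits, had 31.5, 91.5 and 33.0 against 64.8 and 84.1. Among C2H2 families with other names, 13 of 35 Zbtb genes, 9 of 17 Klf genes, 7 of 19 Zscan genes and 5 of 14 Prdm genes met the rule. The CDS share of the 50 such genes was 57.9, 60.7 and 59.7% in the control-IPs and 55.3 and 60.3% in the miR-222-IPs, which overlaps the range of the Zfp genes. These 50 were picked by name. Against all other genes with a C2H2 finger, the difference in CDS share was −10.3 ± 5.31 points. Zfp genes were lower in 5 of 5 libraries (exact sign-flip p = 0.0625).

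The study's lists name Zfp346, described above, and further Zfp genes. Of the latter, Zfp281, a transcription factor of pluripotent cells, had a peak in 4 libraries. It had 42.4 and 24.0 in control-IP replicates 2 and 4 and 26.0 and 86.1 in the miR-222-IPs. Its single interval was in CDS. Zfp365 had 24.9 and 24.3 in control-IP replicates 1 and 2 and 25.5 and 31.6 in the miR-222-IPs, while Zfp287 did not meet the rule. The groups overlapped for Zfp281. Zfp365 had no peak in control-IP replicate 4. Its miR-222-IP values were above its other control-IP values only before scaling between libraries. Scaling divides by 0.667 for control-IP replicate 1 and by 1.58 for miR-222-IP replicate 2. The highest peaks of Zfp365 also lay in different 3′UTR intervals. Neither Zfp281 nor Zfp365 was among the 9 genes with a miR-222 match under a peak.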

How the data were processed

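SOAPSplice was used by the authors for alignment (mm10), and macs2, with its defaults, for peaks of single libraries. The deposited lists give the position and −log10 p of peaks over 20, with no read counts and no strand. The macs2 version is not given in the sources used here. Libraries were grouped by the condition in their labels. The title of miR-222-IP replicate 2 reads miR22, whereas its condition reads miR222, which was used. The members, lists and tests were chosen with earlier results of these data known.

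Peaks were matched to GENCODE M21 protein-coding genes in Python 3.11.15 with numpy 2.4.6, and sequences were read from GRCm38 with pysam 0.24.0. A base was CDS if any transcript has it as CDS, otherwise 3′UTR or 5′UTR. The principal transcript was the first by APPRIS and then by length of CDS. Peaks with equal bases in both parts were left out of shares. Merged intervals join overlapping or touching peaks of the 5 libraries. C2H2 fingers were cysteines 2 residues apart, then 12 residues, and histidines 3 to 5 residues apart. The KRAB motif was DV, 2 or 3 residues, F, 3 residues and EW. Fingers were to be taken from RefSeq proteins, but were found by translating the annotated CDS of the principal transcript. For condition, the highest value of a gene was scaled by the median of ratios.

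Differences over libraries were tested by exact sign-flip permutation, and condition by exact permutation within experiments, both two-sided. All 13 checks of these statistics on simulated data passed. Genes were named by rule: the highest 10 by median value, the most intervals or fingers, all peaks in 1 part, miR-222-IPs beyond the control-IPs, a miR-222 match, the edge of the rule and the study's lists. Zfp868 and Zfp90 were chosen to show repeated matches after these were seen. Alternatives covered the count of a peak, transcripts, overlapping genes, a threshold of 50, the library left out and each library in turn. Some markers of the lists are not reported here.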

Additional observations from a re-analysis of the deposited data

Results flagged for a closer look

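Control-IP replicate 3 stood apart from the other 3 control-IPs. Its exonic regions of Zfp genes had a median width of 55757 bp, against 402 to 557 bp, and such regions can cover whole genes. It had an exonic region on 87 Zfp genes, 52 of them outside the 139, although the report uses none of these. The highest value of Zfp346 in it was 168.3, and that of Zfp839 was 260.5, each far from the other 3 control-IPs. For Zfp207 the value of 54.3 in control-IP replicate 1 was the one far from the rest (84.1 to 89.4). About 1 in 20 groups is singled out by chance.

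In 4 named genes the miR-222-IP lay beyond both control-IPs in one direction in the first experiment and beyond the control-IP in the other direction in the second, where control-IP replicate 4 is the only one used. The log2 ratios were 1.04 and −0.21 for Zfp800, 0.040 and −0.28 for Zfp84, 1.12 and −0.021 for Zfp330, and −0.60 and 0.52 for Zfp827. The difference between the experiments was not tested. In all, 9 of 33 Zfp genes (27.3%) moved in opposite directions, beside 24.8% of all genes with a peak in all 5 libraries.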

How the results depend on the processing

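The lower CDS share of Zfp peaks (−10.5 points) turned to 5.16 by bases, to 1.06 with each gene counted equally, to 4.81 with all members against other genes with 4 coding exons or fewer, and to 0.84 (2 of 5 libraries lower) with both sides so limited. The cause was not tested. It kept its direction under the other 7 settings and without each library (−12.6 to −8.93), where 4 libraries allow no p under 0.125. The condition difference in CDS share was −0.058 with peaks of at least 50. It was 8.33 with no replicate block, and 2.98 to 12.9 without each library, with the lowest value without miR-222-IP replicate 2. The number of members was 33 with a peak required in all 5 libraries, 38 with a −log10 p of at least 50, 95 without miR-222-IP replicate 2 and 95 to 137 over all such omissions. The miR-222 site ratio (1.203) was 0.984 with the 6-mer, 0 in CDS and 1.80 in 3′UTR. The miR-181a ratio (3.01) was 7.95 in CDS and 0.509 in 3′UTR. The CDS minus 3′UTR value ran from −7.35 to −5.39 without each library. Members above the control-IPs (7) were 17 with no scaling and 11 to 18 without each library, and those below (4) were 1 and 7 to 16, where fewer libraries have to differ and more genes have a peak in all that are left. By bases, 47.6% of covered CDS lay in arrays, against 60.7% by peaks. The depth of a single library is not given in the sources used here, so peak values carry no counting error.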
